A study of Mus musculus with 20 samples.

Results

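The growth hormone receptor, STAT5 and IGF axis was followed here through 10 genes chosen by symbol, all of them present among the 20914 genes of the deposited count table and all among the 13670 that passed the filter on low counts. They were Ghr, Jak2, Stat5a, Stat5b, Socs2, Cish, Igf1, Igfals, Igfbp3 and Bcl6. These genes and the gene lists below were chosen with earlier results of these data known. The livers (left lateral lobe) were those of males of strain LiB12cKO, 8 weeks old. All 20 mice were homozygous for a floxed Hsd17b12 gene (HSD17B12lox/lox). In the 10 knockout mice (KO, Alb-CreCre/WT) Cre recombinase was driven by the albumin promoter, which acts in hepatocytes, and the 10 wild-type controls (WT, Alb-CreWT/WT) had no Cre. Hsd17b12 encodes an enzyme of long-chain fatty acid elongation. Effects of Cre and of the loss of Hsd17b12 cannot be told apart in this design, and liver cells in which Cre did not act keep the gene.

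Growth hormone from the pituitary binds its receptor on hepatocytes, the receptor-bound kinase JAK2 phosphorylates STAT5, and STAT5 dimers enter the nucleus. There they induce the gene of the circulating hormone IGF1, genes of its carriers, and feedback inhibitors of the SOCS family. In rodents males secrete growth hormone in pulses and females more continuously, and this pattern sets many sex differences of liver gene expression.

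Libraries held 16693195 to 29124124 fragments assigned to genes. Levels are counts scaled to library size (CPM) with trimmed mean of M-values (TMM) factors, and levels compared between genes are the deposited values per kilobase of exon (RPKM). Hsd17b12 RNA, the check of the labels, averaged 47.8 ± 2.39 CPM over the KO and 152 ± 18.5 CPM over the WT mice (SD, n = 10 per genotype), without overlap. The defining hepatocyte gene Alb was at 35510 CPM in KO and 59430 CPM in WT on average. One library, KO_391, stood apart: its TMM factor of 1.05 was the lowest in KO (median 1.19) and nearest to the highest WT factor of 0.974. Some results are therefore also given without it. TMM factors were higher in every KO library than in every WT library, so the choice of scaling bears on each fold change. With library size alone the median over all tested genes, as a log2 fold change, went from -0.02 to 0.44.

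Of the 10 genes, 6 fell and 1 rose in KO, and 3 did not pass the test (edgeR quasi-likelihood F test, Benjamini-Hochberg adjustment over all tested genes, threshold 0.05). Across the transcriptome 59.2% of tested genes were called by the same rule, 31.0% as lower and 28.2% as higher, so a call by itself was common. The genes that fell were Ghr, Stat5b, Igf1, Igfals, Igfbp3 and Bcl6, and the gene that rose was Jak2. For Ghr, Igf1 and Igfals all KO values lay below all WT values, and for Jak2 all lay above. Over all tested genes 6.47% were below and 7.10% above without overlap. The median log2 fold change of the 10 genes was -0.58, against -0.02 over all tested genes. With library size alone 2 of the 10 were higher, where 68.4% of tested genes were, and 4 were lower, where 6.71% were. In bulk liver, fewer cells of a type and less RNA per cell cannot be told apart.

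**Figure D1:**
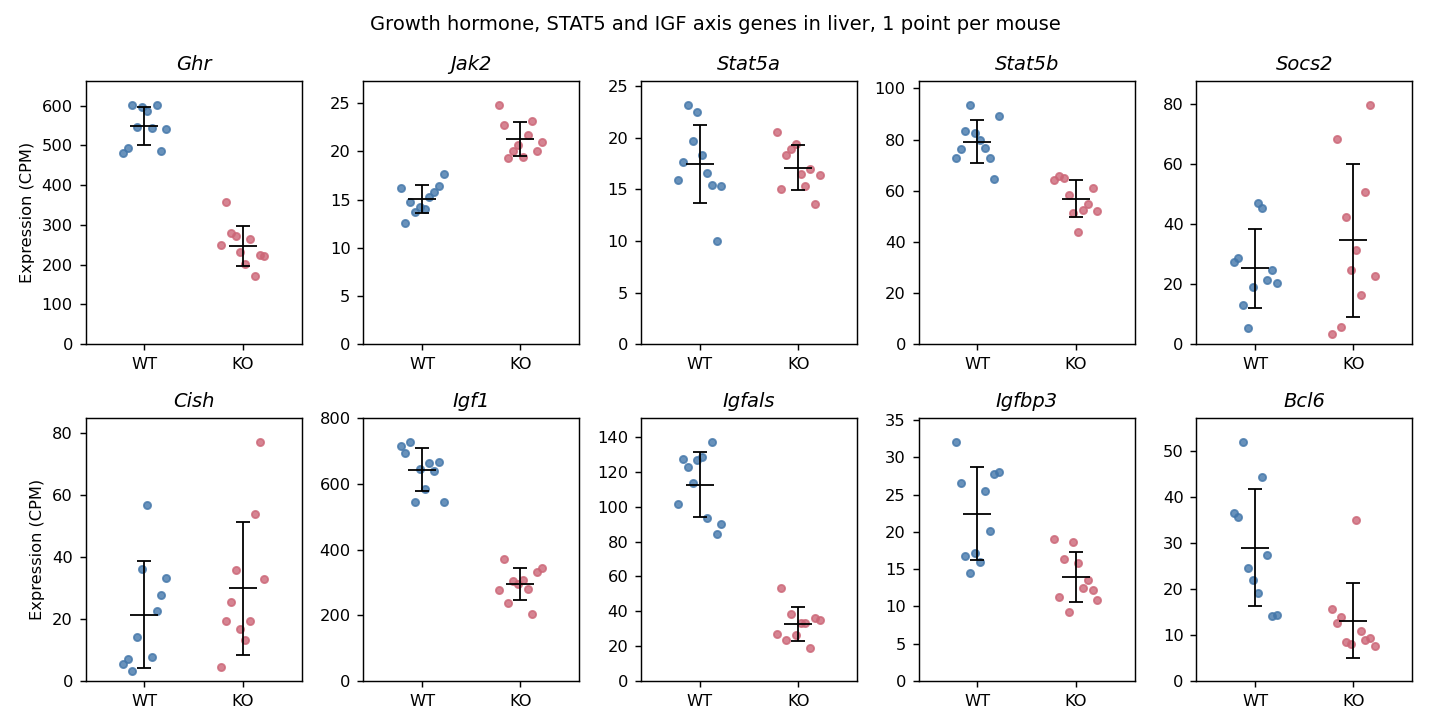
Expression in CPM (vertical axis, linear, from 0) of the 10 genes in WT and KO livers, 1 point per mouse, with the mean (bar) and SD (whiskers) of 10 mice. Ghr, Igf1 and Igfals are lower and Jak2 higher in KO without overlap, while Socs2 and Cish spread widely in both genotypes.

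Promoter windows were examined for the STAT5 consensus TTCNNNGAA, which reads the same on both strands, because the axis acts through that factor. RefSeq windows (GRCm38.p6, the build of mm10), 250 bases before to 50 after a gene's start, were found for 9 of the 10 genes. Of the 32851 windows of all genes 8.3% held at least 1 match, 0.457% at least 2 and 0.0335% at least 3. Matches were found in windows of Cish, Bcl6 and Igfals and in none of those of Ghr, Jak2, Stat5a, Stat5b, Igf1 and Igfbp3. Stretches around the matches are given 5′ to 3′ on the gene's strand, with the matches in capitals. The pair at Cish lies within 50 bases before its first deposited exon (chr9:107296639-107296688, plus strand). The triplet at Bcl6 lies within the gene but outside its deposited exons (chr16:23981343-23981471, minus strand), and a single match lies before it (chr16:23988942-23988990). The matches at Igfals lie before its first deposited exon (chr17:24877594-24877636 and chr17:24878153-24878201, plus strand). The nearest edges of these stretches are 1134 and 569 bases from the deposited start. Another Igfals window, chr17:24878497-24878796, which contains the deposited start at 24878770, held 0 matches. Farther and nearer below name only the Igfals windows with a match.
Cish: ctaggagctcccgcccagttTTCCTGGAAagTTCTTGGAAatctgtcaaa
Bcl6, inside the gene: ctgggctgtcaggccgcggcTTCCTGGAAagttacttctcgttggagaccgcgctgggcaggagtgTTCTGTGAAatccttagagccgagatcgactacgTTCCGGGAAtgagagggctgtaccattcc
Bcl6, before the gene: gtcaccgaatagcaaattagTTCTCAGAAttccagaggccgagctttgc
Igfals, farther window: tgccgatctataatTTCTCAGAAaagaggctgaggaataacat
Igfals, nearer window: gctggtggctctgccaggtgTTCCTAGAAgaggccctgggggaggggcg
The genes with matches did not move alike: Igfals and Bcl6 fell, and Cish did not pass the test.

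The receptor gene Ghr (Entrez 14600; mm10 chromosome 15, 3317760 to 3583230, minus strand, 13 exon blocks) was at 173 CPM in the lowest, 240.8 CPM in the median and 358 CPM in the highest KO mouse. In WT the lowest was 482, the median 545 and the highest 602 CPM. The highest KO value, of mouse KO_391, remained below the lowest WT value. Ghr fell to 45.2% of the WT mean, with a log2 fold change of -1.15 (SE 0.0987, edgeR adjusted p = 2.9e-09). Without KO_391 the value was -1.19. Scatter between WT mice was small, with a coefficient of variation of 8.72%, and larger between KO mice at 20.5%.

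The kinase gene Jak2 (Entrez 16452; mm10 chromosome 19, 29251828 to 29313080) went the other way. Its values were 19.3, 20.8 and 24.8 CPM in the lowest, median and highest KO mouse and 12.6, 15.03 and 17.6 CPM in WT. The log2 fold change was 0.50 (SE 0.0633, adjusted p = 7.88e-07), and all KO mice lay above all WT mice. The log2 ratio of Ghr to Jak2 within a mouse does not depend on library scaling. It had to separate the genotypes, because both genes did so in opposite directions. It was 3.51 ± 0.305 over KO mice and 5.18 ± 0.202 over WT mice (SD, n = 10 per genotype), a difference of -1.66 (two-sided permutation test, p adjusted over 8 ratios = 0.00016).

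The transcription factor genes Stat5a and Stat5b lie side by side on mm10 chromosome 11 (100859351 to 100885169 on the plus strand and 100780731 to 100850585 on the minus strand). Stat5b, the more abundant of the pair in liver, was at 43.9, 56.6 and 65.9 CPM in the lowest, median and highest KO mouse and at 64.6, 78.1 and 93.5 CPM in WT. In 8 of 10 KO mice it lay below every WT mouse, and its log2 fold change was -0.48 (SE 0.0747, adjusted p = 1.2e-05). Under library size scaling this call ended, at -0.01 (adjusted p = 0.909). Stat5a had 13.6, 16.7 and 20.5 CPM in the lowest, median and highest KO mouse and lay between 10 and 23.2 CPM in WT (median 17.1), and all KO values were inside the WT range. Its log2 fold change was -0.03 (adjusted p = 0.851), with a shift of -0.02 and a 95% interval of -0.26 to 0.22 (Hodges-Lehmann estimate with an exact Mann-Whitney interval, n = 10 each). With library size alone Stat5a was higher in KO, at 0.45 (adjusted p = 7.37e-04). The log2 ratio of Stat5a to Stat5b rose from -2.20 ± 0.258 in WT to -1.73 ± 0.255 in KO (SD, n = 10 per genotype; permutation test, adjusted p = 0.00192). These paralogs have closely similar coding sequences and can share fragments, so that their single values are uncertain.

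Socs2 (Entrez 216233; mm10 chromosome 10, 95411490 to 95416857) and Cish (Entrez 12700; mm10 chromosome 9, 107296689 to 107301961) encode inhibitors that STAT5 induces and that damp the receptor's signal. Socs2 was at 3.54, 28.15 and 79.7 CPM in the lowest, median and highest KO mouse and at 5.25, 23.0 and 47.0 CPM in WT. Cish was at 4.35, 22.5 and 77.1 CPM in KO and at 3.23, 18.2 and 56.5 CPM in WT. The genotypes overlapped for both genes, and for Socs2 6 of 10 KO mice were within the WT range, 3 above it and 1 below it. Log2 fold changes were 0.45 (SE 0.464, adjusted p = 0.417) for Socs2 and 0.48 (SE 0.506, adjusted p = 0.426) for Cish. The 95% intervals of the shift, -0.87 to 1.31 and -0.72 to 1.93, include changes in either direction. With library size alone the log2 fold changes were 0.92 for Socs2 and 0.98 for Cish (edgeR adjusted p = 0.0829 and 0.0907). In the authors' deposited table Cish had a log2 fold change of 0.584 with a false discovery rate of 0.0307, and Socs2 one of 0.172 at 0.379.

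Socs2 and Cish, and with them Bcl6, varied most between mice of 1 genotype among the 10 genes by coefficient of variation. The highest KO mouse had 22.5 times the Socs2 level of the lowest, and in WT 8.95 times. For Cish these ratios were 17.7 in KO and 17.5 in WT, while for Igf1 they were 1.83 and 1.34. The coefficient of variation of Socs2 was 51.6% and that of Cish 80.6% in WT, where the median over 12688 genes with a mean of at least 1 CPM was 15.5%. Of those genes 95.4% varied less than Socs2 and 98.8% less than Cish in WT, and 98.7% and 98.6% in KO. For Bcl6 the coefficient was 44.1% in WT and 62.6% in KO. Its KO value rested largely on mouse KO_416 at 35.1 CPM, while the other KO mice spanned 7.69 to 15.6 CPM. The lowest Cish value rested on 51 fragments, so that counting error was small against this spread. Mouse KO_435 had the highest level of both genes in KO, mouse WT_409 in WT, and mouse KO_372 the lowest of both in KO.

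Among the genes of the circulating IGF1 complex, Igf1 (Entrez 16000; mm10 chromosome 10, 87859056 to 87937047), the hormone itself, was at 203, 300.1 and 373 CPM in the lowest, median and highest KO mouse. In WT it was at 544, 656 and 729 CPM. It fell to 46.0% of the WT mean (log2 fold change -1.12, SE 0.0932, adjusted p = 1.82e-09). The extent was close to that of Ghr: the log2 ratio of Igf1 to Ghr was 0.26 ± 0.278 in KO and 0.23 ± 0.219 in WT (SD, n = 10 per genotype). This ratio did not differ by the permutation test (adjusted p = 0.766), with a 95% interval of the shift from -0.22 to 0.28.

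Igfals (Entrez 16005; mm10 chromosome 17, 24878770 to 24882008, 2 exon blocks) encodes the acid-labile subunit, made in hepatocytes, which holds IGF1 and its binding protein in a long-lived complex in blood. Its values were 18.6, 33.2 and 53.6 CPM in the lowest, median and highest KO mouse and 84.5, 118 and 137 CPM in WT. It fell furthest of the 10 genes, to 28.9% of the WT mean (log2 fold change -1.79, SE 0.148, adjusted p = 2.7e-09). It also fell relative to Igf1: the log2 ratio was -3.22 ± 0.213 in KO and -2.52 ± 0.282 in WT (SD, n = 10 per genotype; difference -0.69, permutation test, adjusted p = 0.0004). In 8 of 10 KO mice that ratio lay below every WT mouse.

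Igfbp3 (Entrez 16009; mm10 chromosome 11, 7206086 to 7213923), the main IGF1 binding protein of blood, is known in liver mostly from cells other than hepatocytes. It was at 9.28, 13.1 and 19.1 CPM in the lowest, median and highest KO mouse and at 14.5, 22.8 and 32.1 CPM in WT, with overlap. The log2 fold change of -0.69 (SE 0.159, adjusted p = 8.78e-04) became -0.23 (adjusted p = 0.248) with library size alone. Relative to Igfals it rose, from a log2 ratio of -2.36 ± 0.6 in WT to -1.20 ± 0.683 in KO (SD, n = 10 per genotype; permutation test, adjusted p = 0.00308). Of 14 macrophage markers 12 rose and none fell, and their summed level was 351 to 622 CPM in KO and 167 to 328 CPM in WT. Of 11 endothelial markers 4 rose and none fell, with sums of 269 to 336 CPM in KO and 187 to 352 CPM in WT. Of 12 stellate cell markers 7 rose and none fell, with sums of 329 to 602 CPM in KO and 187 to 368 CPM in WT. Scaled by library size alone, 13 macrophage, 11 endothelial and 9 stellate markers rose and none fell, where 68.4% of all tested genes rose. With TMM factors 28.2% of all tested genes rose and 31.0% fell. No marker of these lists was at 0 in all mice. Their part in the Igfbp3 values was not tested.

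Bcl6 (Entrez 12053; mm10 chromosome 16, 23965052 to 23988612) encodes a repressor that binds many of the same DNA sites as STAT5. It was at 7.69, 10.1 and 35.1 CPM in the lowest, median and highest KO mouse and at 14.1, 25.9 and 52.0 CPM in WT. In 8 of 10 KO mice it lay below every WT mouse, and mouse KO_416 lay above the WT median. The log2 fold change was -1.15 (SE 0.298, adjusted p = 0.00261), and without KO_416 it was -1.42. A gene with no symbol on the opposite strand overlaps its exons, and that gene held at most 46 fragments in any mouse. The log2 ratio of Bcl6 to Socs2 was -1.05 ± 1.74 in KO and 0.29 ± 1.11 in WT (SD, n = 10 per genotype; permutation test, adjusted p = 0.0762).

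The remaining ratios joined the hormone and the inhibitors. The log2 ratio of Igf1 to Socs2 was 3.59 ± 1.4 in KO and 4.87 ± 0.871 in WT (SD, n = 10 per genotype), a difference of -1.29 (permutation test, adjusted p = 0.0383). This call ended when any 1 of 12 of the 20 mice was left out, with adjusted p-values up to 0.0771. That of Cish to Socs2 was -0.06 ± 1.07 in KO and -0.53 ± 1.5 in WT (permutation test, adjusted p = 0.487, n = 10 each).

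**Figure D2:**
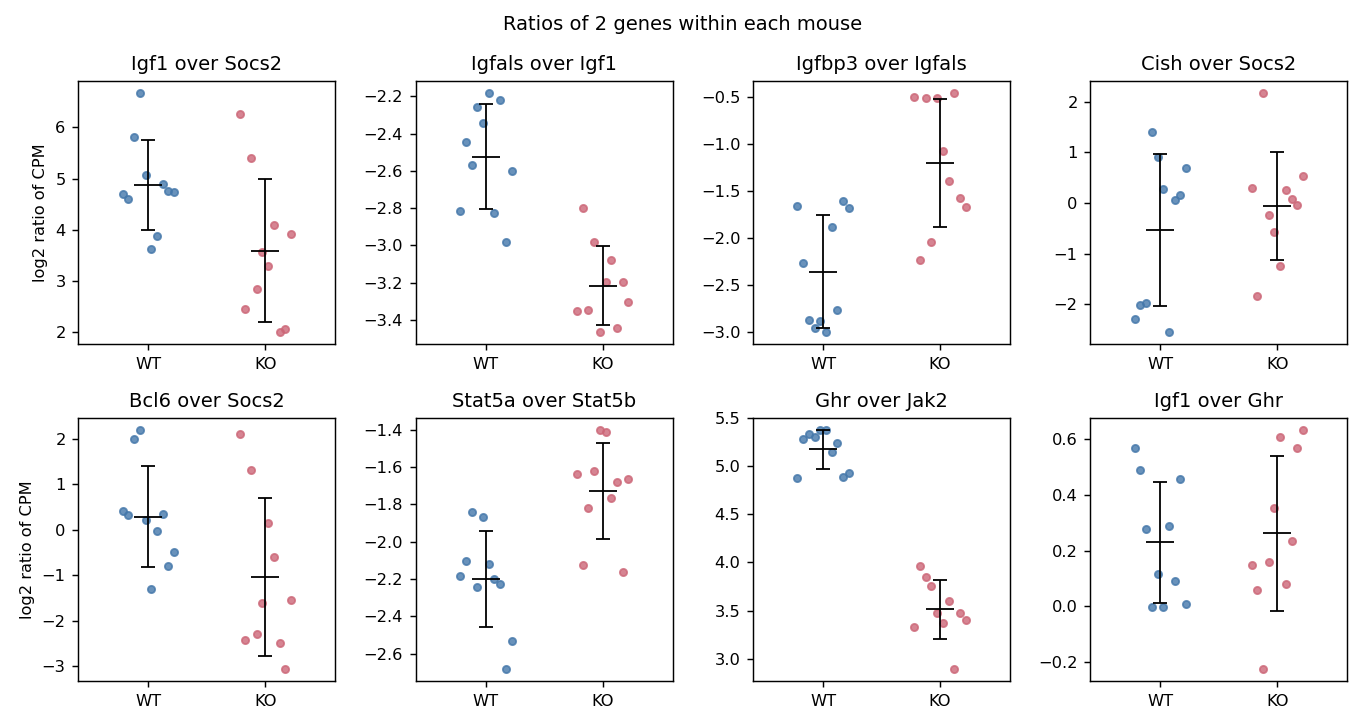
Log2 ratio of the CPM of 2 genes within each mouse (vertical axis) for 8 pairs, 1 point per mouse, with mean and SD of 10 mice per genotype. Ghr over Jak2 separates WT (4.88 to 5.37) from KO (2.89 to 3.97), and Igf1 over Ghr overlaps (WT -0.00386 to 0.571, KO -0.23 to 0.64).

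Of 12 hepatocyte markers 11 were lower and none higher with TMM factors, and 5 were lower and 2 higher with library size alone. Over all tested genes 31.0% were lower with TMM factors, and 6.71% were lower and 68.4% higher with library size alone. With TMM factors their summed level was 66140 to 82020 CPM in KO and 97120 to 139600 CPM in WT, and their mean log2 CPM differed by -0.71. Set against that mean in the same mouse, Ghr was still lower in KO by a log2 difference of -0.46, Igf1 by -0.43 and Igfals by -1.12 (permutation test, p adjusted over 10 genes = 0.00588, 7e-04 and 2.5e-04). On this scale Jak2 was higher by 1.21 (adjusted p = 2e-04) and Stat5a by 0.70 (adjusted p = 0.001). The genotypes overlapped here for Ghr, Igf1, Igfals and Stat5a, and only Jak2 separated them. Stat5b (0.23), Igfbp3 (0.04) and Bcl6 (-0.47) did not pass the test there, with adjusted p-values of 0.115, 0.757 and 0.15. Neither did Socs2 (0.86, adjusted p = 0.15) and Cish (1.33, adjusted p = 0.0585). This reference was chosen after the markers were seen to fall.

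**Figure D3:**
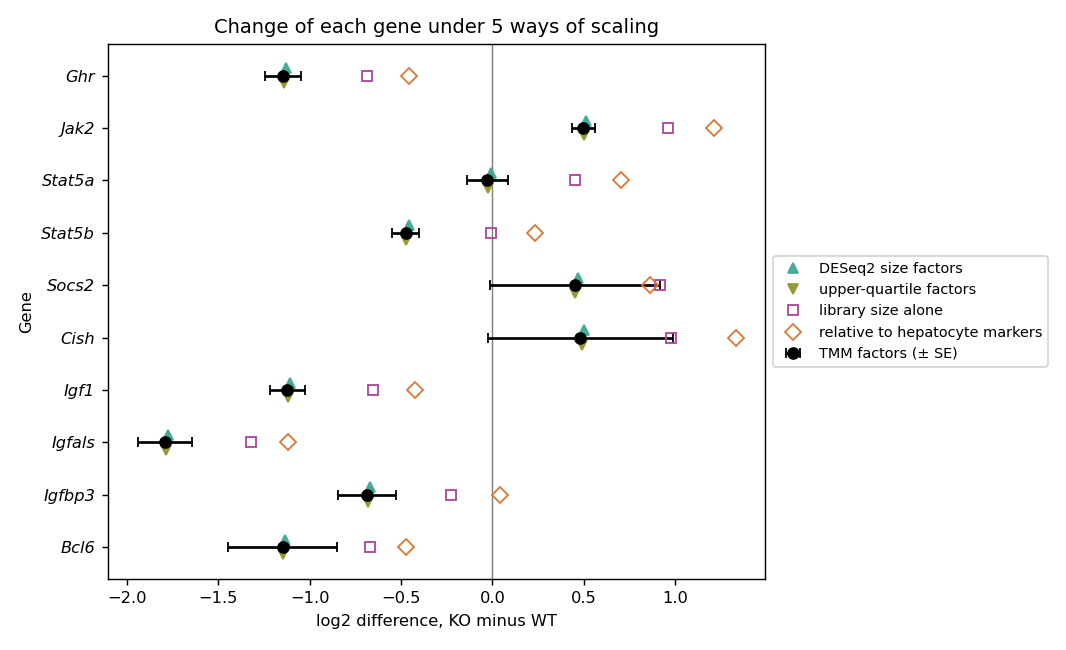
Log2 difference between KO and WT (horizontal axis) of each gene under 5 scalings, with the SE for TMM factors. Ghr, Igf1 and Igfals lie below 0 and Jak2 above 0 under all 5, while Stat5a, Stat5b and Igfbp3 change side or reach 0 with library size alone or with the hepatocyte markers as reference.

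Levels per length gave the order of the 10 genes. In WT it ran from Ghr (124 ± 10.7 RPKM) through Igf1 (82.1 ± 8.38), Igfals (53.3 ± 9.01) and Stat5b (14.5 ± 1.51) to Cish, Socs2, Igfbp3, Bcl6, Stat5a and Jak2 (2.99 ± 0.29 RPKM; SD, n = 10). The ranges of the 4 most abundant genes did not overlap with each other, and each gene after Stat5b overlapped with its neighbour. In KO the order began Ghr (56.0 ± 11.7), Igf1 (37.9 ± 6.42) and Igfals (15.4 ± 4.63 RPKM), and the range of Igfals then overlapped with those of Cish (13.8 ± 9.94) and Socs2 (12.8 ± 9.48). Bcl6 took the last place in KO at 3.98 ± 2.48 RPKM, with overlap with Jak2 at 4.24 ± 0.363 RPKM.

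Within a genotype, 8 pairs of genes were related over 10 mice each by log2 CPM, with p-values from permutation tests adjusted over all 16 relations. Only Igf1 and Igfals in KO passed, with Pearson's r = 0.916 (adjusted p = 0.00304) and Spearman's rho = 0.879 (adjusted p = 0.0237). Mouse KO_391 had the highest and mouse KO_434 the lowest level of both genes. Without the 2 mice farthest from the Igf1 median, KO_434 and KO_402, r was 0.802 over the 8 mice left and did not pass the adjustment (adjusted p = 0.119), and without KO_391 r was 0.903. In WT the same pair had r = 0.0812 and rho = -0.0788 (adjusted permutation p = 0.871 and 0.922, n = 10), and the difference between the genotypes was not tested. Ghr and Igf1, whose means fell alike, had r = 0.482 and rho = 0.103 over KO mice (adjusted permutation p = 0.423 and 0.922, n = 10). Without the 2 mice farthest from the Ghr median, KO_391 and KO_434, that r was -0.683. Cish and Socs2 had r = 0.687 and rho = 0.539 in KO (adjusted permutation p = 0.218 and 0.402, n = 10) and r = 0.163 in WT. Without the 2 KO mice farthest from the Cish median, the r in KO was 0.152.

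**Figure D4:**
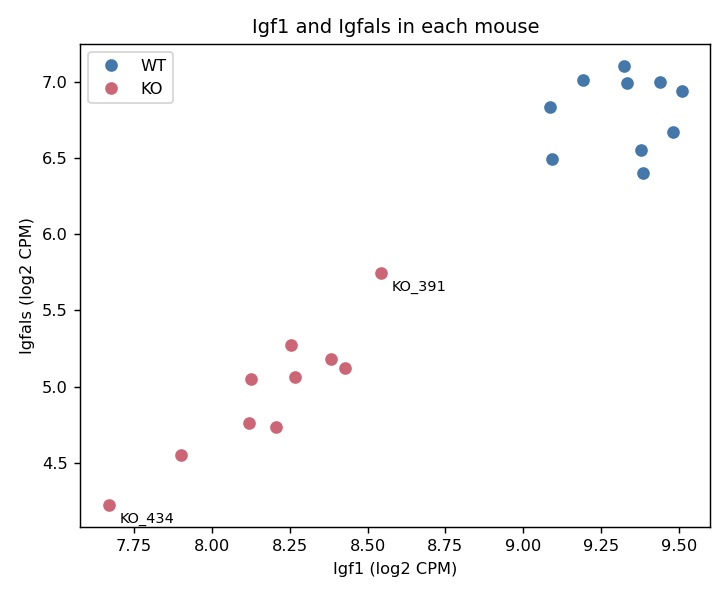
Igfals (vertical axis) against Igf1 (horizontal axis), both in log2 CPM, 1 point per mouse. The KO mice lie along a rising line from KO_434 to KO_391 (r = 0.916), and the WT mice form a separate group at higher levels of both genes.

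Genes most like Igf1 and Socs2 across the 20 mice, once each genotype's mean was subtracted, were ranked by Pearson's r over 10886 genes as a description. For Igf1 they were Micos13 (0.80), Ciao1 (0.80), Zfp65 (0.79), Zfp968 (0.77) and Serpina4-ps1 (0.77). For Socs2 they were Ptpn9 (0.79), Crem (0.78), Adgrl2 (0.77), Onecut1 (0.74) and Prpf6 (0.73). Onecut1, a liver transcription factor known to respond to growth hormone, had a log2 fold change of 0.27 (adjusted p = 0.655; 0.01 without KO_391) and thus shared with Socs2 a wide scatter without a difference between the genotypes that passed the test.

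Other receptors, kinases, STAT and SOCS genes went both ways. Of 30 tested members of 31, 8 rose and 10 fell, with a median log2 fold change of -0.04. The share called, 60.0%, was near that of all tested genes, 59.2% (28.2% higher and 31.0% lower). Lifr, the receptor of leukaemia inhibitory factor, fell: its mean was 443 ± 102 CPM over WT and 115.5 ± 61.2 CPM over KO mice (SD, n = 10 per genotype), with a log2 fold change of -1.94 (adjusted p = 1.9e-07) and of -2.17 without KO_391. Stat3 and Stat2, transcription factors of interleukin-6 and interferon signalling, had -0.76 and -0.59, and Src, a tyrosine kinase, rose by 2.01. With library size alone 20 rose and 3 fell, where 68.4% of all tested genes rose and 6.71% fell. Stat2 was then at -0.11 (adjusted p = 0.141).

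Of 20 genes of the IGF system beside the core, 14 were tested, of which 6 rose and 3 fell with a median of 0.26. The share called was 64.3%, near the 59.2% of all tested genes (28.2% higher and 31.0% lower). Igfbp4 and Igfbp2, binding proteins that carry IGF in smaller complexes, fell by 0.95 and 0.96 on the log2 scale (adjusted p = 6.4e-08 and 3.8e-05). Igfbp4 went from 1791 ± 238 to 927 ± 166 CPM without overlap (SD, n = 10 per genotype). Igf2bp2 and Igf2bp3, RNA-binding proteins first described on Igf2 mRNA, rose by 2.27 and 2.13, from WT means of 0.995 and 1.27 CPM. Igfbp7, a secreted protein of vascular and stromal cells, rose by 0.51. Of the markers of those cells, 4 of 11 endothelial and 7 of 12 stellate markers rose, beside 28.2% of all tested genes. Their part in the Igfbp7 value was not tested.

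Of 18 other genes known to respond to growth hormone or STAT5, 16 were tested, of which 4 rose and 6 fell with a median of -0.09. The share called was 62.5%, near the 59.2% of all tested genes. Cd36, a fatty acid transporter, rose by 3.40 on the log2 scale (adjusted p = 4.57e-12), from a WT mean of 22.9 ± 8.69 to a KO mean of 243 ± 23.65 CPM (SD, n = 10 per genotype). Pparg, a lipid-responsive nuclear receptor, rose by 1.67. Both are known to rise when STAT5 is lost from liver, and a part of STAT5 in these values was not tested. Egfr, the epidermal growth factor receptor, which growth hormone maintains, had -1.53 (adjusted p = 6.22e-05), and the protease inhibitor gene Serpina3k had -1.50 (-1.68 without KO_391). Without mouse KO_391, whose Egfr level of 666 CPM was the highest in KO, Egfr was at -1.82. Cebpa, a hepatocyte transcription factor, had -0.49 and was at -0.01 (adjusted p = 0.866) with library size alone. In this list 8 rose and 3 fell with library size alone, where 68.4% of all tested genes rose and 6.71% fell. Without KO_391 6 of the list rose and 6 fell.

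Male-biased genes, which pulsatile growth hormone maintains through STAT5b, mostly fell: 25 of 30 tested were lower and 1 higher, with a median of -2.05. Over all tested genes 31.0% were lower and 28.2% higher. With library size alone 25 of the list fell and 2 rose, where 6.71% of all tested genes fell and 68.4% rose. Cyp2u1, a cytochrome P450, fell by 1.70 and Gstp1, a glutathione transferase, by 1.62 on the log2 scale (adjusted p = 2.56e-08 and 3e-08). C8a, a complement component, went from 796 ± 61.4 to 347 ± 91.0 CPM without overlap (SD, n = 10 per genotype). Mup3, a major urinary protein, went from 9542 ± 2406 to 1441 ± 757 CPM. Moxd1, a monooxygenase-like gene, ranged from 0 to 212 CPM in WT (median 78.0) and had a median of 0.0166 CPM in KO. Its highest KO value, 3.85 CPM in KO_391, made up nearly all of the KO mean of 0.4 CPM, and the log2 fold change went from -7.68 to -11.79 without that mouse. Cyp4a12b, a fatty acid hydroxylase, was the gene that rose (0.61, adjusted p = 4.39e-04). The summed level of the list was 35210 CPM in mouse KO_391, where the KO median was 12570 and the WT range 33340 to 90240 CPM. Without that mouse 27 of 30 fell and 1 rose.

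Of 24 female-biased genes 14 were tested, of which 8 rose and 2 fell with a median of 1.12. Over all tested genes 28.2% rose and 31.0% fell. With library size alone 10 of the 14 rose, a share near the 68.4% of all tested genes that rose. In the same setting 2 fell, where 6.71% of all tested genes fell. Cyp4a14, a fatty acid hydroxylase, rose by 4.82 on the log2 scale (adjusted p = 6.98e-08), from a WT mean of 69.9 ± 67.9 to a KO mean of 1978 ± 474 CPM (SD, n = 10 per genotype). Acot3, an acyl-CoA thioesterase, rose by 4.51. Both are also known targets of the fatty acid receptor PPAR-alpha. Cyp3a44 rose by 2.12 from a WT mean of 0.355 CPM. Cyp2c40 and Cyp2c69, cytochromes P450 higher in female liver, fell by 2.54 and 3.25. Without KO_391 the log2 fold change of Cyp2c69 was -3.65. With a filter of at least 1 CPM in 10 mice 5 of the list rose. The Cyp, Mup, Gstp and Serpina3 genes have near-identical copies that can share fragments, and their single values are uncertain.

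**Figure D5:**
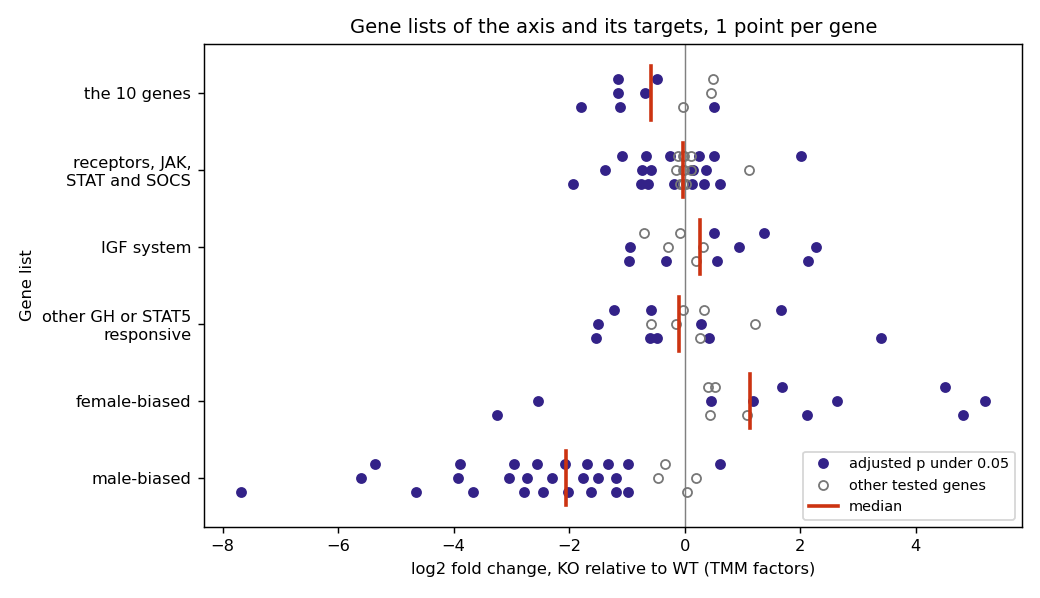
Log2 fold change of each tested gene, KO relative to WT (horizontal axis), in the core list and 5 further lists (vertical axis). Filled points passed the test, open points did not, and red bars mark list medians, from -2.05 for male-biased to 1.12 for female-biased genes.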

How the data were processed

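Genotype came from the sample labels. Unnormalized counts of fragments, 1 row per Entrez gene, were deposited by the authors. Their file names mention Rsubread, featureCounts, RefSeq and mm10, while HISAT2 2.0.5 and DESeq2 stand in the submitters' processing notes. Whether counting used strand is not given in those sources. The deposited normalized signal equalled CPM with TMM factors over all genes (largest relative deviation 4.88e-15). Scaled back by library size and TMM factor, 100% of its values matched the counts within 1e-06 reads, as that equality required. The deposited RPKM is the normalized signal per kilobase. The test reported was run on the deposited counts, with 8086 genes called. The authors' ROTS table gives a log2 fold change and, per the file headers, p-values and a false discovery rate. Gene ontology tables and 23 columns of per-sample alignment and counting statistics were not used.

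Counts were fitted with edgeR 4.0.16 in R 4.3.3 (filterByExpr, minimum count 10 and total 15; TMM factors; robust quasi-likelihood F test, two-sided; adjusted p threshold 0.05). CPM given here uses TMM factors over the tested genes, and RPKM is as deposited. Log2 CPM had a prior count of 2. SE was derived from the F statistic. Ratios and relations used two-sided permutation tests with 100000 resamples. Statistics were tested on simulated data. Alternatives were other scalings, filters and tests (DESeq2 1.42.0, limma 3.58.1), a depth covariate and leaving out each mouse. The members and lists were chosen with earlier results of these data known. Besides the 10 members, named genes were up to 4 per list with the smallest adjusted p, the largest rise and fall (mean log2 CPM 1 or more), and 5 genes most like Igf1 and Socs2. Separate mice are the replicates.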

Additional observations from a re-analysis of the deposited data

Results flagged for a closer look

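The level of Bcl6 in mouse KO_416, 35.1 CPM, stood far from those of the other 9 KO mice, which spanned 7.69 to 15.6 CPM. Its gap to the next mouse was 0.712 of the whole KO range, above Dixon's 95% critical value of 0.466. Over 36 groups of values examined, chance flags about 1 in 20. Without this mouse the log2 fold change of Bcl6 went from -1.15 to -1.42 (edgeR adjusted p = 5.02e-05).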

How the results depend on the processing

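Ghr, Jak2, Igf1 and Igfals kept their direction and their call under every alternative run, with leave-one-out log2 fold changes of -1.19 to -1.07, 0.47 to 0.54, -1.15 to -1.05 and -1.87 to -1.70. Library size alone moved most counts: 9355 genes were higher and 917 lower, and 2 of the 10 genes were higher. There 20 receptor and JAK-STAT genes were higher and 3 lower, 8 other responsive genes higher and 3 lower, and 2 male-biased genes higher. The stricter filter left 5 female-biased rises. Stat5a was at 0.45 with library size alone, at 0.70 against hepatocyte markers (chosen after seeing the data), and at -0.0966 to 0.0297 without 1 mouse. Against the same markers Stat5b was at 0.23 and Igfbp3 at 0.043, and Bcl6 at -0.47 lost its call; the cause was not tested. Without 1 mouse the log2 ratio differences spanned -1.58 to -1.09 for Igf1 to Socs2, -1.68 to -1.11 for Bcl6 to Socs2 (passing without KO_372, KO_402 or WT_409) and -0.00802 to 0.0875 for Igf1 to Ghr. Without the 2 farthest mice r was 0.802 for Igf1 and Igfals in KO, -0.683 for Ghr and Igf1 in KO, 0.0878 for Ghr and Igf1 in WT and -0.277 for Igf1 and Igfals in WT, which was -0.382 with library size alone; the cause was not tested. With library size alone Stat5b (-0.01) and Igfbp3 (-0.23) lost their calls. No paired analysis was possible because mouse numbers differ between the genotypes and no litter is named. Depth did not limit the 10 genes, whose lowest count was 51 fragments.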

Other observations

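Among genes outside the naming rule, picked after their values were seen, Igfbp1, an IGF binding protein made in hepatocytes, rose by 1.37 on the log2 scale (edgeR adjusted p = 0.00179), with means of 241 ± 133 CPM over WT and 623 ± 317 CPM over KO mice (SD, n = 10 per genotype). Irs2, an insulin receptor substrate, rose by 0.94 (adjusted p = 0.001), with means of 10.4 ± 4.03 CPM over WT and 20.04 ± 6.81 CPM over KO mice. The insulin receptor gene Insr had -0.32 (0.14 with library size alone, adjusted p = 0.118). Irs1, the other insulin receptor substrate of liver, had -0.29 (adjusted p = 0.0522), and Pck1, an enzyme of gluconeogenesis, had -0.91 (adjusted p = 0.00531, and 0.0985 with library size alone). Il6ra, the interleukin-6 receptor, had -1.39 (adjusted p = 0.00118), and Socs3, the SOCS gene that interleukin-6 induces, had -1.08 (adjusted p = 0.0167, and 0.144 with library size alone). Socs1 was at 0.65 CPM in KO and 0.607 CPM in WT on average.

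Mouse KO_372 had the lowest Socs2 and Cish of the KO mice, 3.54 and 4.35 CPM, together with the highest Jak2 (24.8 CPM), Stat5a (20.5 CPM) and Igfbp3 (19.1 CPM). Mouse KO_391 had the highest Ghr, Stat5b, Igf1 and Igfals of the KO mice, at 358, 65.9, 373 and 53.6 CPM, and its Jak2 of 22.8 CPM was above every WT mouse.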
